A study of Homo sapiens and Homo sapiens
Mus with 12 samples.

Results

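Mitochondrial DNA carries 7 genes that encode subunits of complex I, the NADH dehydrogenase of the respiratory chain, and their transcripts were followed here after knockdown of CDH11, a cadherin, in bladder cancer cells. The members were taken by symbol: MT-ND1, MT-ND2, MT-ND3, MT-ND4L, MT-ND4, MT-ND5 and MT-ND6, that is 7 of 21466 genes with values in the cultured cell table and 7 of 26813 in the human table of the tumors. All groups derive from UM-UC-3, an established human bladder cancer line, infected with GIPZ lentivirus that carries GFP and sorted for GFP. The control group, shCtrl, carries a non-silencing hairpin, and sh#1 and sh#2 each carry 1 hairpin against CDH11, so all groups share the vector and the sort, and both hairpins together are called CDH11 KD. Cultured cells gave 3 libraries per group after 24 hours of preculture. Xenograft tumors, grown in Matrigel under the skin of nude mice that were 5 weeks old at inoculation, gave 5 libraries per group at 4 weeks. Nude mice lack T cells but keep other immune cells, stroma and vessels, and their RNA is part of each tumor sample.

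Complex I takes electrons from NADH and pumps protons across the inner mitochondrial membrane. Its 7 subunits made inside mitochondria form the core of the proton-pumping membrane arm, while the remaining subunits are made from nuclear genes and imported. Mitochondrial DNA is transcribed from both strands into long precursors, which are cut mostly at transfer RNAs that lie between the genes. Most, but not all, of the mRNAs are then polyadenylated. MT-ND6 is the member read from the opposite strand. In bulk RNA, fewer cells of a type and less RNA per cell cannot be told apart, and the same holds for fewer mitochondrial genomes and less RNA per genome.

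In the hg38 build with the GENCODE annotation, 6 members lie on the plus strand of the mitochondrial chromosome, each as a single exon: MT-ND1 (ENSG00000198888) at chrM:3307-4262, MT-ND2 (ENSG00000198763) at chrM:4470-5511, MT-ND3 (ENSG00000198840) at chrM:10059-10404, MT-ND4L (ENSG00000212907) at chrM:10470-10766, MT-ND4 (ENSG00000198886) at chrM:10760-12137 and MT-ND5 (ENSG00000198786) at chrM:12337-14148. MT-ND6 (ENSG00000198695) lies on the minus strand at chrM:14149-14673, directly beside the end of MT-ND5. The last 30 bases of each gene are printed because the members differ there in how the reading frame is closed, with the bases of the stop codon that the DNA itself supplies in capitals (AGG serves as the stop in MT-ND6).
MT-ND1: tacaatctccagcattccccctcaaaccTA
MT-ND2: ctatctccccttttatactaataatcttaT
MT-ND3: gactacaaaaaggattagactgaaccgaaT
MT-ND4L: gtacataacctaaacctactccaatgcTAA
MT-ND4: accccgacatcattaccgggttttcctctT
MT-ND5: ctcatcctaaccctactcctaatcacaTAA
MT-ND6: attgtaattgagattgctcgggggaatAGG
MT-ND1, MT-ND2, MT-ND3 and MT-ND4 end in 1 or 2 bases of a stop codon, which the poly(A) tail completes, whereas MT-ND4L, MT-ND5 and MT-ND6 hold all 3 bases. MT-ND4L and MT-ND4 also share 7 bases, in capitals in the next sequence, and are carried on a single bicistronic mRNA, so a read over this stretch belongs to both genes.
MT-ND4L and MT-ND4 overlap: aacctactccaATGCTAAaactaatcgtcc

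Totals counted on genes ran from 2273182 to 2777019 per cultured library and from 414849 to 1248977 human counts per tumor, and the members took from 70553 to 110821 and from 13165 to 32114 of them. Every member passed the low-count filter in both tables. CDH11 itself had 2 to 4 counts in shCtrl cultured libraries, 0 to 1 in sh#1 and 0 to 2 in sh#2. These counts are too few to check the knockdown there, for which the paper reports significantly lower CDH11 mRNA and protein. The shCtrl, sh#1 and sh#2 tumors had 5 to 32, 1 to 9 and 2 to 14 counts. Of the line markers, KRT8, KRT18 and VIM were present in every library, KRT7 had at most 14 counts, and CDH2 had 57 to 106 counts in culture and 0 to 25 in the tumors. Each tumor group was sequenced in its own library mix, so mix and group cannot be told apart in the tumors. One library, sh#1 tumor 1, had the lowest total (414849) and the highest share of mouse counts (30.02%, against 10.4% to 18.8% in the other 14 tumors). Log2 fold changes of CDH11 KD tumors are therefore also given without it.

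In CDH11 KD cultured cells, 3 members were lower than in shCtrl, 1 was higher and 3 did not pass the test. MT-ND1, MT-ND2 and MT-ND3 fell to between 0.51 and 0.61 of their control level, MT-ND6 rose 1.5-fold, and MT-ND4L, MT-ND4 and MT-ND5 had differences of 0.12 to 0.25 on the log2 scale. The test was the quasi-likelihood test of edgeR, with p-values adjusted after Benjamini and Hochberg over 9859 genes and a threshold of 0.05 on the adjusted p (q). In this comparison 8.32% of all genes tested were called lower and 9.12% higher. The median log2 fold change of the members was 0.12, against 0.00 over all genes tested. The 7 members together took 4.59% of all counts in shCtrl cells (SD 0.106, n = 3), but 3.15% after CDH11 KD (SD 0.0975, n = 6), and these ranges did not overlap. MT-ND1, MT-ND2 and MT-ND3 supplied 59.9% to 61.1% of the members' counts in shCtrl and 41.2% to 44.8% in CDH11 KD cells.

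Each of the members that fell did so with both hairpins. MT-ND1, the subunit at the junction with the quinone-binding site, had 7047, 7328 and 7284 normalized CPM, that is counts scaled to the library size with TMM factors, in the shCtrl libraries. Its values were 3885, 4048 and 4129 with sh#1 and 4684, 4706 and 4971 with sh#2. All 6 CDH11 KD libraries were therefore below all 3 shCtrl libraries, and the hairpins did not overlap either. Its log2 fold change was -0.71 (standard error, SE, 0.09, edgeR q = 4.94e-05).

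MT-ND2, one of the antiporter-like subunits that carry protons, had 9027, 7910 and 7963 normalized CPM in shCtrl. With sh#1 it had 4013, 4278 and 3757, and with sh#2 4747, 4435 and 4153. Both hairpins were below every shCtrl library and overlapped each other. The log2 fold change of MT-ND2 was -0.97 (SE 0.09, edgeR q = 9.24e-07), the largest fall among the members.

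MT-ND3, a small subunit with a loop near the quinone site, had 10075, 10690 and 10425 normalized CPM in shCtrl. It was at 5788, 5770 and 5890 with sh#1 and at 4849, 5124 and 5552 with sh#2. No CDH11 KD library reached the shCtrl range, and here sh#2 was the lower hairpin. The log2 fold change was -0.92 (SE 0.09, edgeR q = 1.15e-06). The calls of MT-ND1, MT-ND2 and MT-ND3 held in all 16 alternatives of this comparison.

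MT-ND4L and MT-ND4, which share an mRNA, did not pass the test. MT-ND4L, a small membrane subunit, had 439, 439 and 459 normalized CPM in shCtrl, 486, 534 and 470 with sh#1 and 574, 577 and 549 with sh#2. Its groups did not overlap, but the log2 fold change of 0.25 (SE 0.09) did not pass the threshold (edgeR q = 0.0553). DESeq2 (q = 0.035), the mean of both hairpins in a fit of 3 groups (q = 0.000202) and the fits without sh#1 replicate 1 (q = 0.0351) or sh#1 replicate 3 (q = 0.0283) called it higher. MT-ND4, another antiporter-like subunit and the member with the most counts, had 14681, 14327 and 14262 normalized CPM in shCtrl, 15017, 16071 and 14555 with sh#1 and 17074, 16170 and 16385 with sh#2. The sh#1 and shCtrl libraries overlapped, and the log2 fold change was 0.14 (SE 0.09, edgeR q = 0.297). The mean of both hairpins in a fit of 3 groups called MT-ND4 higher as well (q = 0.0156).

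MT-ND5, the antiporter-like subunit at the far end of the membrane arm, had 1808, 1250 and 1230 normalized CPM in shCtrl, so that the first control library stood at the level of sh#2. With sh#1 it had 1210, 1255 and 1246, and with sh#2 1831, 1868 and 1889. The log2 fold change was 0.12 (SE 0.19, edgeR q = 0.727). Leaving out shCtrl replicate 1 moved it to 0.32 (q = 0.33), still short of the threshold.

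MT-ND6, the member of the opposite strand, had 545, 494 and 507 normalized CPM in shCtrl. It reached 599, 642 and 689 with sh#1 and 930, 831 and 951 with sh#2. The 3 groups did not overlap, with sh#2 highest. The log2 fold change was 0.59 (SE 0.14, edgeR q = 0.0111), and the call was lost without shCtrl replicate 2 (log2 fold change 0.56, q = 0.0583) or shCtrl replicate 3 (0.57, q = 0.0554). For every 100 counts on the other 6 members, MT-ND6 had 1.18 to 1.26 in shCtrl and 1.97 to 2.84 in CDH11 KD cells. The other 6 include MT-ND1, MT-ND2 and MT-ND3, which fell, so this ratio is not a separate measure of MT-ND6. The sources used here do not say whether strand was used in counting, so reads of MT-ND6 and of the precursor of the other strand across the same bases cannot be told apart.

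**Figure D1:**
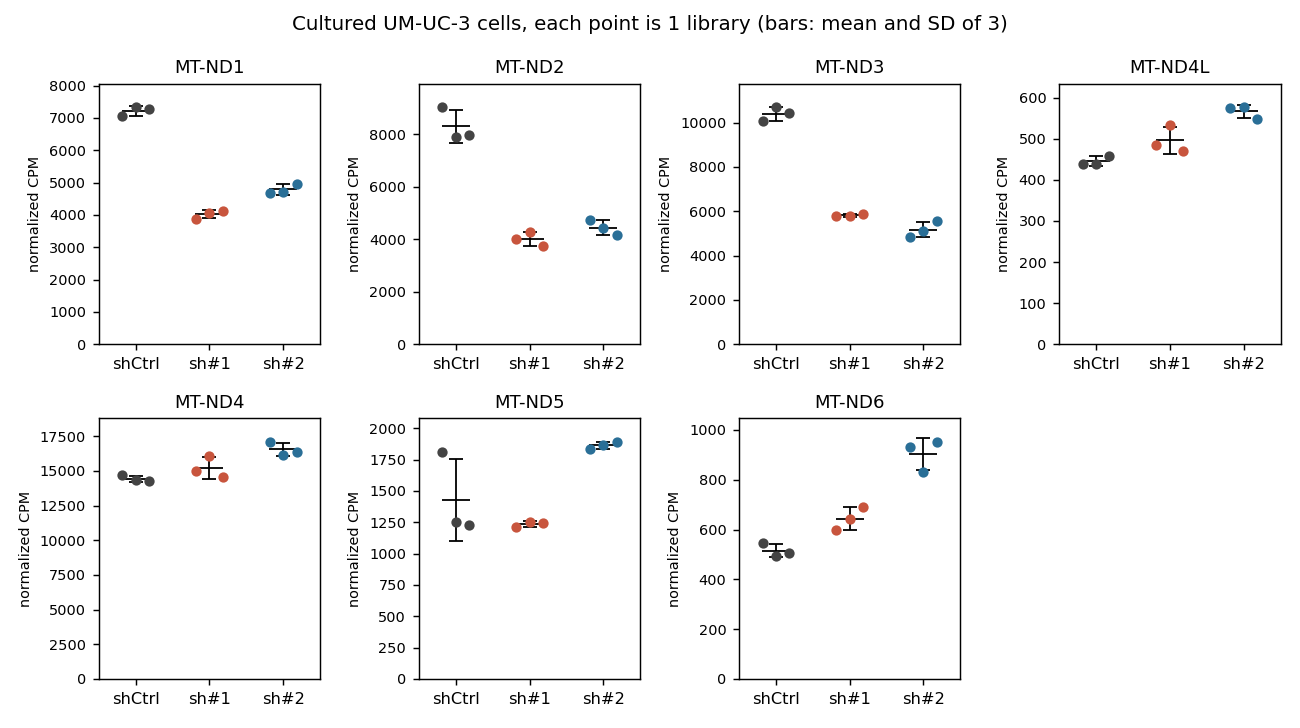
Normalized CPM (vertical axes, from 0) of each member in the cultured libraries of shCtrl, sh#1 and sh#2, 1 point per library, with bars for the mean and SD of 3 libraries. MT-ND1, MT-ND2 and MT-ND3 sit lower in all 6 CDH11 KD libraries, MT-ND6 sits higher, and shCtrl replicate 1 stands apart for MT-ND5 at 1808.

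Each hairpin was also compared with shCtrl in a fit of 3 groups, and these comparisons share the 3 shCtrl libraries. With sh#1, MT-ND1, MT-ND2 and MT-ND3 were lower (3 members, against 10.6% of all genes) and MT-ND6 was higher (1 member, against 11.8% of all genes). Their log2 fold changes were -0.84, -1.05, -0.84 and 0.32, each with an SE of 0.05 to 0.06. With sh#2, the same 3 members were lower (18.8% of all genes were) and MT-ND4L, MT-ND4 and MT-ND6 higher (19.5% of all genes were). The falls were -0.59, -0.90 and -1.01 on the log2 scale with sh#2, and the rises 0.35, 0.20 and 0.81. MT-ND5 did not pass with sh#2 (log2 fold change 0.38, edgeR q = 0.0877), but did without shCtrl replicate 1 (0.59, q = 1.11e-11) and with no low-count filter (0.39, q = 0.0296).

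Between the hairpins, 4 members were lower in sh#1 than in sh#2 (13.5% of all genes were) and 1 was higher (11.2% of all genes were). The lower members were MT-ND1 (log2 difference -0.25, q = 0.000221), MT-ND4L (-0.19, q = 0.0164), MT-ND5 (-0.59, q = 0.029) and MT-ND6 (-0.49, q = 1.13e-08), and the higher one was MT-ND3 (0.17, q = 0.0169). MT-ND2 (-0.15, q = 0.0618) and MT-ND4 (-0.12, q = 0.0849) did not pass. The calls of MT-ND1 and MT-ND6 held in all 15 alternatives. That of MT-ND5 was lost when any sh#1 or sh#2 library was left out (q from 0.072 to 0.0944) and with the replicate number as a block (q = 0.0545). MT-ND3 lost its call without sh#2 replicate 1 (0.12, q = 0.131) or sh#2 replicate 2 (0.16, q = 0.0784), and MT-ND4L lost its call without sh#1 replicate 1 (q = 0.0616), sh#1 replicate 3 (q = 0.0978) or sh#2 replicate 2 (q = 0.0719).

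The other 6 protein-coding genes of mitochondrial DNA were read beside the members in cultured cells, where 3 were lower and 1 was higher in CDH11 KD. This comparison called 8.32% of all genes lower and 9.12% higher. MT-ATP8 (log2 fold change -1.44, q = 0.00265) and MT-ATP6 (-0.82, q = 6.96e-05), subunits of ATP synthase, and MT-CO3 (-0.98, q = 0.00019), a subunit of cytochrome c oxidase, were lower. These genes lie next to each other and just before MT-ND3 in the order of the genes. MT-CO1, a catalytic subunit of cytochrome c oxidase, was higher (0.64, q = 0.0263), while MT-CO2 (-0.12, q = 0.388) and MT-CYB (-0.03, q = 0.867) did not pass. Along the plus strand, the genes that fell in CDH11 KD thus formed 2 runs, MT-ND1 with MT-ND2 and MT-ATP8 to MT-ND3, with MT-CO1 and MT-CO2 between them and MT-ND4L to MT-CYB after them. The hairpins taken singly departed from this. With sh#1, MT-CO2 (-0.18, q = 0.0156) and MT-CYB (-0.23, q = 0.001) were lower as well, and with sh#2 MT-CYB was higher (0.14, q = 0.0364). Of the members, those that fell all had an incomplete stop codon in the DNA, and so did MT-ND4, which was not called.

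**Figure D2:**
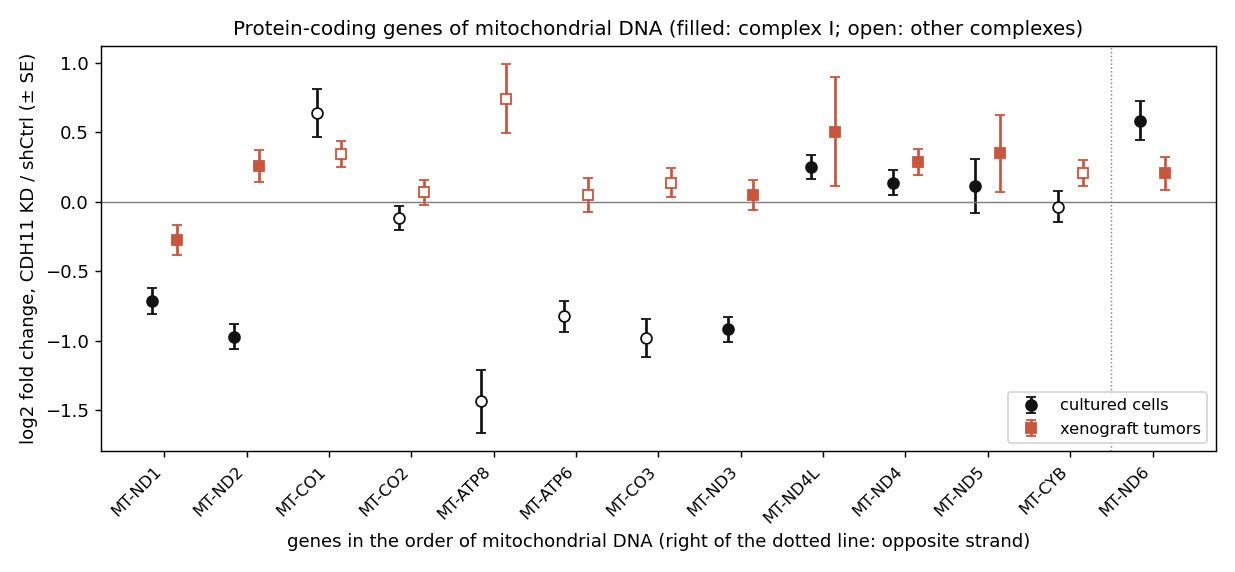
Log2 fold change of CDH11 KD against shCtrl with its standard error (SE) (vertical axis) for the 13 protein-coding genes in the order of mitochondrial DNA, with circles for cultured cells and squares for tumors, filled for complex I and open for the others. In cultured cells MT-ND1, MT-ND2 and MT-ND3 lie between -0.97 and -0.71 and MT-ND6 at 0.59, while in tumors the members lie between -0.27 and 0.50.

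Among the 37 nuclear genes of complex I subunits, all tested in cultured cells, 4 were higher and 2 lower in CDH11 KD, with a median log2 fold change of 0.09. This comparison called 9.12% of all genes higher and 8.32% lower, so these counts are near those shares. NDUFA1 (0.43), NDUFC1 (0.39), NDUFB4 (0.34) and NDUFB3 (0.32) were higher, and NDUFC2 (-1.20) and NDUFB7 (-0.31) lower. All 6 encode accessory subunits, most of them in the membrane arm. Of 18 assembly factors, ACAD9 was higher (0.43) and TIMMDC1, which helps build the membrane arm, lower (-0.59), with a list median of 0.02. TFB2M, the transcription initiation factor, was the 1 called of 9 tested transcription genes (-0.97), and TWNK, the replicative helicase, the 1 called of 12 tested maintenance genes (-0.91). Of 21 genes for RNA processing and stability, TRMT10C, a subunit of the RNase P that cuts at transfer RNAs, was lower (-0.54), ANGEL2 was lower (-0.93), and LRPPRC, which stabilizes mitochondrial mRNAs, was higher (0.35). Of 6 tested regulators of mitochondrial biogenesis, PPARGC1B (-1.81) and PPRC1 (-0.93), transcriptional coactivators, and YY1 (-0.64), a transcription factor, were lower. PPARGC1B had low levels, 9.02 to 13.4 normalized CPM in shCtrl and 1.40 to 4.51 in CDH11 KD. TFB2M (1.40 to 8.69 in CDH11 KD) and ANGEL2 (3.27 to 6.21) were low as well. With sh#2 alone, 1 of the 9 transcription genes was higher and 5 lower, and 1 of the 21 RNA processing genes was higher and 8 lower. Of all genes, 19.5% were higher and 18.8% lower with sh#2. With sh#1 alone, 0 of the 9 transcription genes were called, and 3 of the 21 RNA processing genes were higher and 1 lower. Of all genes, 11.8% were higher and 10.6% lower with sh#1. In CDH11 KD the medians of these 4 lists were -0.25, -0.11, -0.17 and -0.57, against 0.00 over all genes tested. The hairpins differed, with medians of -0.16, -0.03, 0.10 and -0.38 for sh#1 and -0.52, -0.20, -0.36 and -0.82 for sh#2. Taken singly, sh#1 did not call NDUFB7, ACAD9, TFB2M or TRMT10C, and sh#2 did not call LRPPRC (edgeR q from 0.0672 to 0.114).

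The genes whose pattern over the 9 cultured libraries came closest to a called member were mostly not mitochondrial. Other members were left out of this search, so members could not be nearest to each other. Besides them, mitochondrial DNA holds only 6 protein-coding genes. Likeness was the root mean square difference of centred log2 normalized CPM, over 8103 genes whose mean count was 20 or more. H3-3A (0.0531) and PITPNB (0.0828) were nearest to MT-ND1, SPIN4 (0.0854) and C5orf24 (0.119) to MT-ND2, CKAP4 (0.0877) and MT-ATP6 (0.101) to MT-ND3, and RPL11 (0.0681) and TPT1 (0.0773) to MT-ND6. In the tumors, where no member was called in CDH11 KD, MT-ATP8 (0.423) was nearest to MT-ND4L, the member with the largest log2 fold change there, over 6438 genes and 15 tumors.

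In the xenograft tumors, 0 of 7 members passed the threshold of 0.1 in CDH11 KD against shCtrl by the quasi-likelihood test of edgeR, adjusted after Benjamini and Hochberg over 9184 genes, in a comparison that called 1.51% of all genes in either direction. At an unadjusted p under 0.05 there were 3 members, MT-ND1 lower and MT-ND2 and MT-ND4 higher, and DESeq2 called 0. The share of all genes under that unadjusted p was not taken for any tumor comparison. The median log2 fold change of the members was 0.26, against 0.01 over all genes tested. Together the members took 2.47% of human counts in shCtrl tumors (SD 0.254, n = 5) and 2.77% after CDH11 KD (SD 0.336, n = 10), with overlapping ranges, and 2.73% (SD 0.323, n = 9) without sh#1 tumor 1.

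MT-ND4 came nearest to the threshold. It had 8635, 10461, 10030, 7728 and 8991 normalized CPM in shCtrl tumors, 12267, 10858, 13146, 10183 and 11181 with sh#1 and 9594, 11781, 10405, 9866 and 12552 with sh#2. The groups overlapped, with 6 of the 10 CDH11 KD tumors above the highest shCtrl tumor. Its log2 fold change was 0.29 (SE 0.09, unadjusted p = 0.0036, edgeR q = 0.148), and the mean of both hairpins in a fit of 3 groups called it higher (0.29, q = 0.0793). Without sh#1 tumor 1 the CDH11 KD value of MT-ND4 was 0.27 (q = 0.198). With sh#1 alone MT-ND4 was the 1 member called (log2 fold change 0.33, SE 0.10, q = 0.0958), in a comparison that called 1.48% of all genes. That call was lost in 17 of 23 alternatives, among them the fit without sh#1 tumor 1 (0.31, q = 0.207).

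The 3 members that fell in culture had small differences in the tumors. MT-ND1 had 2085, 2282, 2003, 2485 and 2381 normalized CPM in shCtrl tumors, 1374, 1542, 2378, 1905 and 1768 with sh#1 and 1508, 2239, 1630, 2031 and 2194 with sh#2. It was lower on average with either hairpin, with overlap (log2 fold change -0.27, SE 0.11, edgeR q = 0.283). MT-ND2 had 3358, 3822, 3695, 3660 and 3424 in shCtrl, 6399, 3514, 5378, 4042 and 4195 with sh#1 and 3451, 4179, 3831, 3580 and 4345 with sh#2. Its mean was thus higher in CDH11 KD (log2 fold change 0.26, SE 0.12, q = 0.345), with the highest value in sh#1 tumor 1. MT-ND3 ranged from 1977 to 2487 in shCtrl, from 1632 to 2957 with sh#1 and from 1844 to 2622 with sh#2, and its log2 fold change was 0.05 (SE 0.11, edgeR q = 0.901). Without sh#1 tumor 1 the log2 fold changes of MT-ND1, MT-ND2 and MT-ND3 in CDH11 KD were -0.24, 0.17 and 0.09.

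For MT-ND4L, MT-ND5 and MT-ND6, the same tumors stood highest in each hairpin group. MT-ND5 had 2192, 4563, 3175, 2612 and 2529 normalized CPM in shCtrl, 7001, 2038, 3688, 3115 and 3709 with sh#1 and 3031, 6114, 3258, 2764 and 3760 with sh#2. MT-ND4L ranged from 201 to 451 in shCtrl, from 209 to 1035 with sh#1 and from 251 to 822 with sh#2. MT-ND6 ranged from 3779 to 4746, from 3572 to 6823 and from 3745 to 5709. The highest values of MT-ND4L, MT-ND5 and MT-ND6 in the sh#1 group were in tumor 1, and those in the sh#2 group in tumor 2. In these tumors the mitochondrial ribosomal RNAs MT-RNR1 and MT-RNR2 took 10.5% and 10.6% of human counts, against 3.35% to 8.86% in the other 13, and the part of this in the spread was not tested. The log2 fold changes in CDH11 KD were 0.50 (SE 0.39) for MT-ND4L, 0.35 (SE 0.28) for MT-ND5 and 0.20 (SE 0.12) for MT-ND6, with q values of 0.642, 0.65 and 0.501. Without sh#1 tumor 1 they were 0.31, 0.21 and 0.13.

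**Figure D3:**
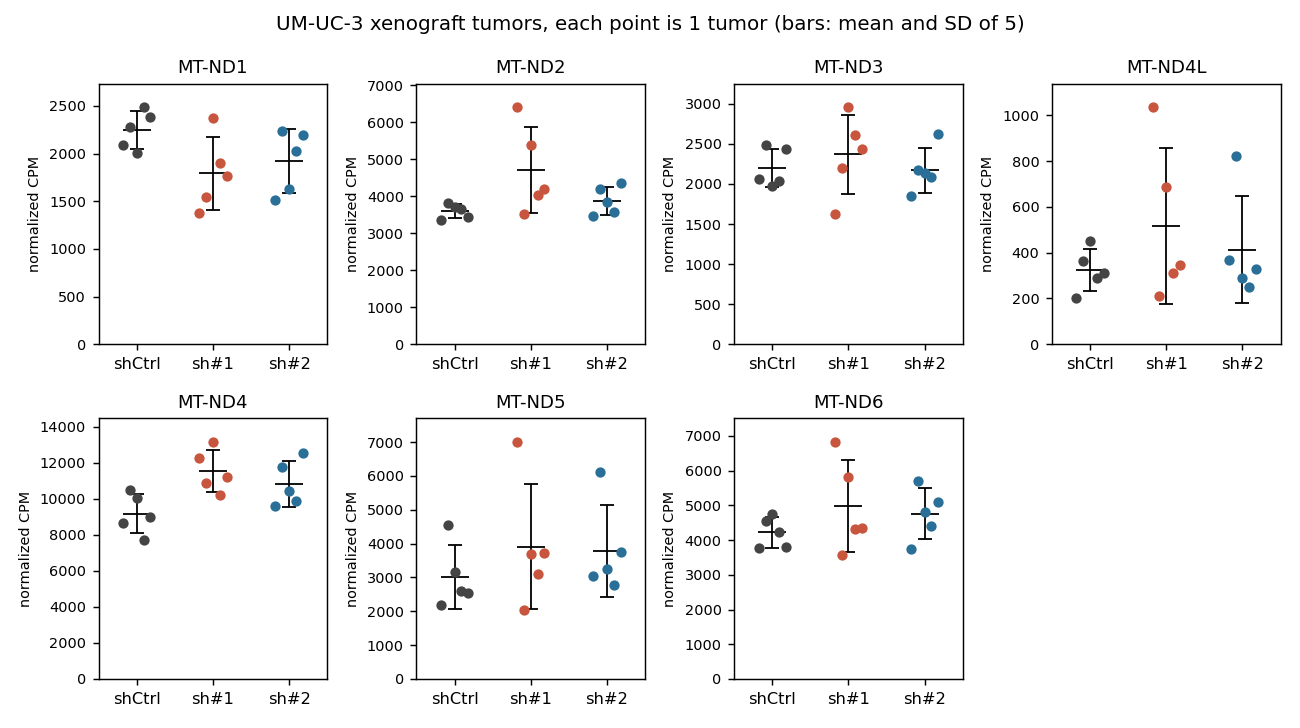
Normalized CPM (vertical axes, from 0) of each member in the xenograft tumors of shCtrl, sh#1 and sh#2, 1 point per tumor, with bars for the mean and SD of 5 tumors. The groups overlap for every member, and sh#1 tumor 1 and sh#2 tumor 2 are the highest of their groups for MT-ND5, at 7001 and 6114.

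With sh#2 alone 0 of 7 members were called in the tumors (1 at an unadjusted p under 0.05, MT-ND4, and 0 by DESeq2), where edgeR called 2.68% of all genes. Between sh#1 and sh#2 tumors 0 were called as well (1 at an unadjusted p under 0.05, MT-ND2, and 0 by DESeq2), where edgeR called 1.19% of all genes. Of the other 6 protein-coding genes of mitochondrial DNA, MT-CO1 was higher in CDH11 KD tumors (log2 fold change 0.34, edgeR q = 0.0723), and the list median was 0.17. CDH11 KD against shCtrl called 1.51% of all genes in the tumors. Of 34 tested nuclear subunit genes, NDUFB7 was the 1 called and was higher (0.47), with a list median of -0.17. NDUFAF3, an assembly factor, was lower (-0.53), and so was FASTK (-0.60), whose mitochondrial form is known to be needed for MT-ND6 mRNA. FASTK was the 1 gene called in the lists for transcription, maintenance, RNA processing and biogenesis, whose medians in the tumors were -0.02, -0.17, -0.07 and -0.01. The ribosomal RNAs MT-RNR1 (0.57) and MT-RNR2 (0.61) did not pass. MT-RNR1 reached 23180 normalized CPM in 1 sh#1 tumor, and without sh#1 tumor 1 the values were 0.03 for MT-RNR1 and 0.49 for MT-RNR2. MT-CO1 (0.33, edgeR q = 0.0874), NDUFB7 (0.48, q = 0.0566), NDUFAF3 (-0.52, q = 0.0874) and FASTK (-0.59, q = 0.0923) passed without that tumor too.

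Some members have copies in the nuclear genome, and reads can be divided between the copies. Of the 75-base stretches of each gene, the length of the reads, an exact copy exists on a nuclear chromosome of hg38 for 17.1% in MT-ND1, 34.4% in MT-ND2, 7.1% in MT-ND6 and 0.2% in MT-ND5, and for 0 in MT-ND3, MT-ND4L and MT-ND4. The exact copies of MT-ND1 lie mostly in the pseudogene MTND1P23 (chr1:629062-629433), those of MT-ND2 in MTND2P28 (chr1:629640-630683) and those of MT-ND6 in MTND6P4 (chr5:134924123-134924644). The cultured cell table lists 0 pseudogenes of the members, while the human tumor table lists 32, with 7.61 counts for every 100 on the members, and 88.2% of these were on MTND1P23. The tables therefore differ in where such reads could be counted.

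MTND1P23 held nearly as many counts as MT-ND1 in the tumors. In the shCtrl tumors MT-ND1 had 2598, 2109, 1757, 2794 and 1554 counts, and MTND1P23 had 1888, 1518, 1245, 1886 and 1197. MTND1P23 thus took 40.3% to 43.5% of their sum in shCtrl. The share was 41.6%, 55.0%, 51.8%, 54.6% and 52.5% in sh#1 tumors and 50.7%, 42.6%, 48.3%, 48.9% and 51.8% in sh#2 tumors, so 8 of the 10 CDH11 KD tumors were above the whole shCtrl range. The exceptions, sh#1 tumor 1 and sh#2 tumor 2, were again those in which MT-RNR1 and MT-RNR2 took the highest share of human counts. This share was picked after its values were seen and is given without a test. MTND1P23 itself did not pass the test (log2 fold change 0.21, edgeR q = 0.623, and 0.28 without sh#1 tumor 1), and with pseudogene counts added to each member the log2 fold change of MT-ND1 in CDH11 KD tumors was -0.05 in place of -0.27.

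**Figure D4:**
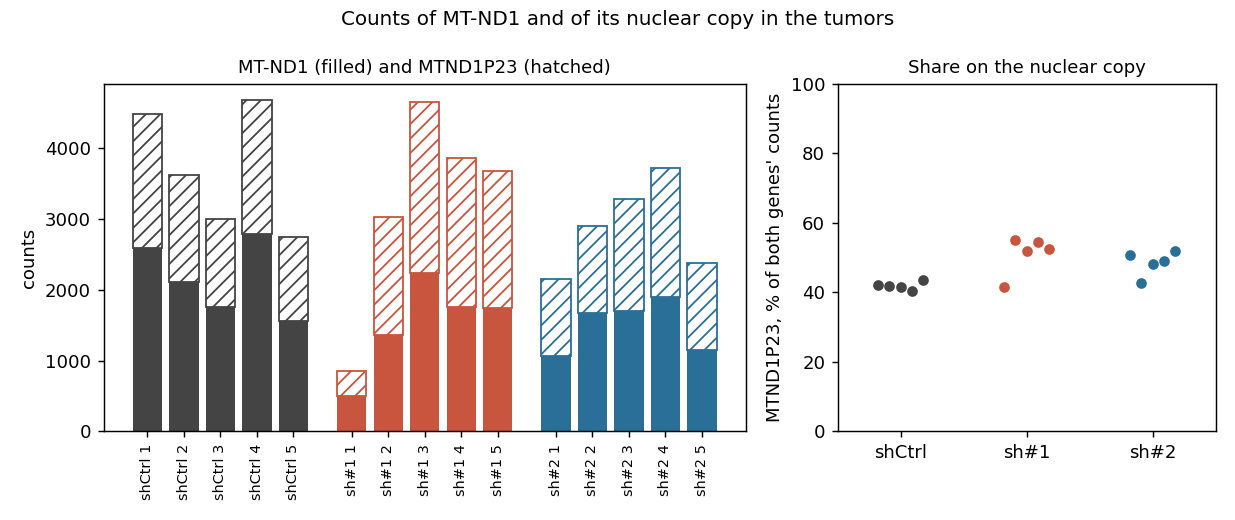
Left, counts of MT-ND1 (filled) and MTND1P23 (hatched, stacked on top) in each tumor; right, MTND1P23 as a percent of both genes' counts, 1 point per tumor. The shCtrl tumors sit between 40.3% and 43.5%, and 8 of the 10 CDH11 KD tumors sit above them.

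The other pseudogenes with the most counts were MTND6P3, MTND5P11, MTND6P4 and MTND2P28. MTND6P3 had 28 to 236 counts per tumor and MTND2P28 2 to 14. MTND5P11 had 1 to 46 counts in shCtrl, 21 to 35 with sh#1 and 1 to 8 with sh#2, and differed between sh#1 and sh#2 tumors (log2 difference 2.91, edgeR q = 0.0579, and 2.79, q = 0.0988, without sh#1 tumor 1). MTND6P4 had 10 to 30 counts in shCtrl, 0 to 5 with sh#1 and 1 to 8 with sh#2, and was lower in CDH11 KD (log2 fold change -1.94, edgeR q = 0.000621, and -1.87 without sh#1 tumor 1). Both lie beside each other on chromosome 5, MTND5P11 at chr5:134924648-134926459. Their values are uncertain, since reads could go to either copy.

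The order of the members by level per length differed between culture and tumors. In shCtrl cultured cells, MT-ND3 was highest (30048 normalized CPM per kb), followed by MT-ND4 (10467), MT-ND2 (7966), MT-ND1 (7552), MT-ND4L (1501), MT-ND6 (982) and MT-ND5 (789). Of these neighbours, MT-ND2 and MT-ND1 overlapped in their libraries, and so did MT-ND6 and MT-ND5. In shCtrl tumors the order was MT-ND6 (8041 normalized CPM per kb), MT-ND4 (6654), MT-ND3 (6356), MT-ND2 (3447), MT-ND1 (2350), MT-ND5 (1664) and MT-ND4L (1090), where MT-ND3 and MT-ND2 and then MT-ND2 and MT-ND1 were the neighbours without overlap. MT-ND6 thus went from near the bottom to the top of the order. Culture and tumor libraries were made by different methods, sequenced on different instruments and counted in separate tables, and the part of this in the order was not tested. Whether reads covered each gene along its whole length was not tested either. In cultured CDH11 KD cells the fall left MT-ND3 first (15883) and MT-ND4 second (11523).

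**Figure D5:**
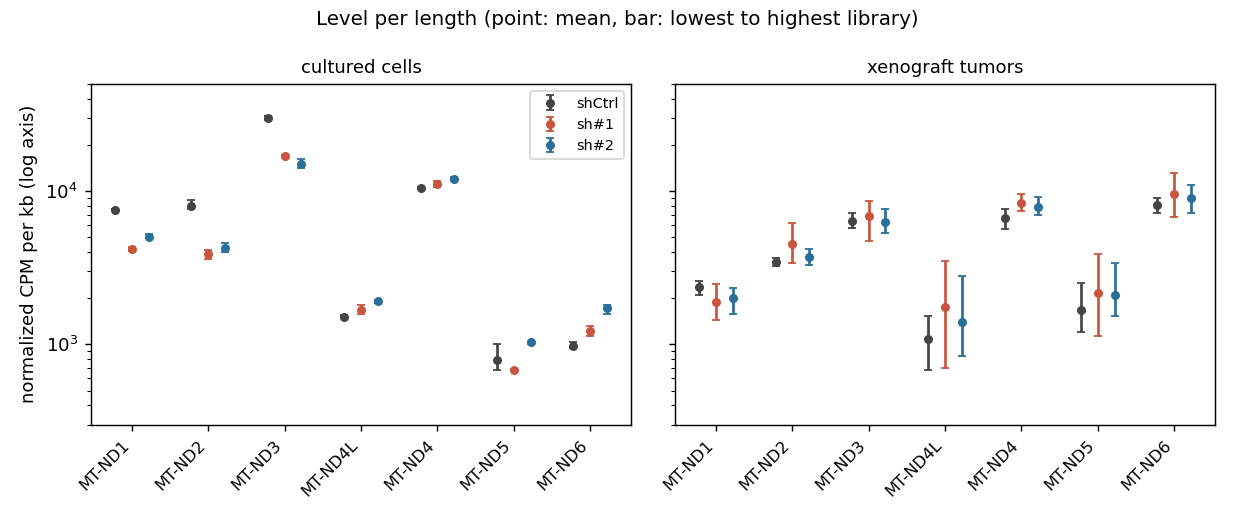
Normalized CPM per kb of gene length (log axis) for each member in cultured cells and in tumors, with the mean as a point and a bar from the lowest to the highest library of shCtrl, sh#1 and sh#2. MT-ND3 is highest in cultured cells, at 30048 in shCtrl, and MT-ND6 in tumors, at 8041 in shCtrl.

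Whether the CDH11 KD difference itself differed between tumors and cultured cells was tested in 1 edgeR fit over all 24 libraries and 9595 genes in both tables, as the tumor difference minus the cultured one. This subtraction gave a value above 0 that passed the threshold for 2 members, MT-ND2 and MT-ND3, which were lower in CDH11 KD culture (-0.97 and -0.92) and had 0.26 and 0.05 in the tumors. The test called 5.73% of all genes in this direction. MT-ND2 had a difference of 1.21 on the log2 scale (SE 0.17, edgeR q = 3.34e-06) and MT-ND3 one of 0.95 (SE 0.16, edgeR q = 0.000116), and both calls held in all 27 alternatives. For MT-ND1 the difference was 0.42 (SE 0.17, edgeR q = 0.112), and 7 of 27 alternatives called it, with 0.46 (q = 0.0568) without sh#1 tumor 1. Adding pseudogene counts to members was not among these 27 alternatives. In the tumors alone that addition moved MT-ND1 from -0.27 to -0.05, and its part in the difference was not tested. MT-ND6 had -0.40 (SE 0.20, edgeR q = 0.243), and MT-ND4L (0.23), MT-ND5 (0.21) and MT-ND4 (0.13) were not called.

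The mouse table gave values for 5 mouse counterparts, mt-Nd1, mt-Nd2, mt-Nd4, mt-Nd5 and mt-Nd6. Together they had 268 to 928 counts in shCtrl tumors, 370 to 3382 with sh#1 and 336 to 1742 with sh#2. They were 0.276% to 0.604% of the mouse counts in shCtrl and 0.234% to 0.837% in CDH11 KD tumors other than sh#1 tumor 1, where they were 1.90%. Of 12 host markers, Col1a1, Col3a1, Lyz2 and Hbb-bs had the most counts and Krt14 had 0 to 1, and their summed share of mouse counts was 1.31% to 2.36% in shCtrl, 0.798% to 2.31% in sh#1 and 1.45% to 3.23% in sh#2 tumors. How human and mouse reads were separated is not given in the sources used here, and the part of mouse reads in the tumor values of the members was not tested beyond the fit that had the mouse to human ratio as a covariate, in which 0 members were called in CDH11 KD.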

How the data were processed

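Gene counts from RNA-seq of UM-UC-3 cells were used, with 9 libraries from culture and 15 from xenograft tumors. The authors deposited unnormalized counts of 75 bp single reads per gene. Per the paper's methods, reads of cultured cells were trimmed in CLC Genomics Workbench and mapped to hg38 with RaNAseq, and reads of tumors were trimmed with trim galore and mapped to hg38 with HISAT2. The counting tool, annotation, strand setting, use of molecular identifiers and treatment of reads with several matches are not given in the sources used here. Of the cultured table, a few genes were not analysed here.

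Comparisons used edgeR 4.0.16 under R 4.3.3 (TMM and filterByExpr, then the robust quasi-likelihood test, with Benjamini-Hochberg adjusted p-values over all genes as q values), at 0.05 in cultured cells and 0.1 in tumors and for the difference between systems. A fit of 2 groups gave CDH11 KD and a fit of 3 groups each hairpin. On simulated data with 200 altered genes, the edgeR fit recovered 77% of 2-fold and 89% of 4-fold changes over 9859 cultured genes, with 4.6% of calls false, and 88% and 86% over 9184 tumor genes, with 10.3% false. The alternatives tried were upper quartile normalization, DESeq2 1.42.0, a filter of 10 counts or more in every library, none on low counts, totals without mitochondrial DNA genes, pseudogene counts added to members, a mouse to human ratio covariate, a block for the replicate number, 3 groups for CDH11 KD, and leaving out each replicate.

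The members and gene lists were chosen with earlier results of these data known. Genes named were the members, list genes called in CDH11 KD, the 5 member pseudogenes with the most counts, and the 2 genes nearest to each called member (or to the member with the largest difference), of which 1 is not reported here. MTND1P23 as a share of its sum with MT-ND1 was added after its values were seen, as were the values of the members' share, other genes and pseudogenes in tumors without sh#1 tumor 1. Sequences and positions were read from hg38 with GENCODE 44. The labels do not say that cultured replicates are separate cultures, so p-values measure the spread between these libraries, which may be technical. In each group, all pairs of replicates differed beyond sampling noise.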

Additional observations from a re-analysis of the deposited data

Results flagged for a closer look

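A tumor far from the rest of its group was found in 2 of 27 sets of 5 values, and chance flags about 1 in 20 such sets. In sh#2 tumor 2, MT-ND4L had 822 normalized CPM, and the other sh#2 tumors had 251 to 370. MTND1P23 took 41.6% of its sum with MT-ND1 in sh#1 tumor 1, against 51.8% to 55.0% in the other sh#1 tumors. The CDH11 KD difference differed between tumors and cultured cells for MT-ND2, by 1.21 on the log2 scale, and for MT-ND3, by 0.95, in the quasi-likelihood test of edgeR (Benjamini-Hochberg q = 3.34e-06 and 0.000116). MT-ND2 was below every shCtrl library in 6 of 6 cultured CDH11 KD libraries.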

How the results depend on the processing

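Counts of members called are given here as higher or lower, without the share of all genes that each alternative fit called. That share can differ between fits, and the SE of MT-ND1 in cultured CDH11 KD was 0.045 with 3 groups and 0.093 with 2 groups. In cultured CDH11 KD cells 1 member was higher, 3 when the hairpins were fitted as separate groups and averaged and 2 by DESeq2, and 0 to 2 over the fits that left out a replicate. For sh#1 against shCtrl this range was 1 to 2 and for sh#2 3 to 4. Between sh#1 and sh#2 it was 2 to 5 lower and 0 to 1 higher. In the tumors, CDH11 KD against shCtrl gave 1 higher member with 3 groups in place of 0. The 1 higher member with sh#1 became 0 under DESeq2, upper quartile normalization, at least 10 counts in every library, totals without mitochondrial DNA genes and the mouse to human ratio, and leaving out a replicate gave 0 to 2 higher and 0 to 1 lower.

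The replicate number as a block gave 0 members with sh#1 in tumors in place of 1, and changed the calls of MT-ND2, MT-ND4 and MT-ND5 between sh#1 and sh#2 in culture. The deviations of same-numbered libraries had correlations of -0.005 to 0.055 in culture and -0.096 to 0.126 in tumors. Pairs with different numbers were not compared, so whether a number marks a shared culture or day was not tested.

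Some tumor log2 values that had not passed the test changed sign. MT-ND3 in CDH11 KD ran from -0.0019 to 0.0946 over the fits without a replicate, and with sh#2 from -0.0958 to 0.0358 (0.0852 with the mouse to human ratio). MT-ND4L with sh#2, at 0.35 with all tumors, ran from -0.0639 to 0.498. Between sh#1 and sh#2 the ranges were -0.072 to 0.7067 for MT-ND4L (0.29 with all tumors), -0.2611 to 0.2826 for MT-ND5 and -0.065 to 0.1652 for MT-ND6, and MT-ND1 was at 0.0002 with pseudogene counts added. The causes were not tested. Of 1267 log2 values under an alternative, 1196 kept direction and side of the threshold, 31 lost a call, 26 gained one and 14 changed sign. With the other mitochondrial DNA genes left out of the total, the members' share was 4.81% in shCtrl and 3.25% in CDH11 KD cultured cells, and 2.70% and 3.11% in the tumors.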
